A study of Pinus pinaster with 18 samples.

Results

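In maritime pine (*Pinus pinaster*), 150 transcripts were high in early somatic embryos, were lower in later somatic embryos and had similar levels in the first and second zygotic stages collected. They were chosen from the 287424 transcripts of the deposited count table on plain CPM, the count divided by the library's total count and scaled to 1000000. A transcript had to average at least 10 CPM in ES1 (12158 transcripts). Each ES1 library also had to lie above every ES2 and ES3 library (5186 left), and the ratio of the PC mean to the EC mean, with 1 CPM added to both, had to be between 0.67 and 1.5 (3742 left). The 150 with the highest ratio of ES1 to the higher of ES2 and ES3, again with 1 CPM added, were taken. These levels chose the transcripts, so the ES1, ES2, ES3, PC and EC values below are a description with no test. Stage C was not used by the choice and is the only stage compared by a test.

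Total RNA was sequenced from embryos of 6 stages, with 3 libraries each. The somatic embryos came from the single embryogenic line PN519 of a controlled cross, which matured in darkness at 24 °C with abscisic acid (ABA) at 80 µM, sucrose at 68 g/L and Phytagel at 9 g/L in the medium. ES1 embryos were translucent and taken at 4 to 6 weeks, ES2 embryos were opaque and pre-cotyledonary at 6 to 10 weeks, and ES3 embryos were cotyledonary at 12 to 14 weeks. The zygotic embryos were dissected from seeds of 1 orchard at the pre-cotyledonary (PC, early to mid July), early cotyledonary (EC, mid to late July) and cotyledonary (C, early August to early September) stages. Embryo type, genotype, culture and harvest cannot be told apart in this design. The methods speak of both independent biological samples and technical replicas (3 each). Which kind a stage's libraries are cannot be read from the labels, so p-values measure only how these libraries vary, part of which can be technical. Fewer cells of a type and less RNA per cell cannot be told apart either.

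Somatic embryogenesis regenerates plants from embryogenic tissue kept in culture, and conifer cultures are moved to medium with ABA to turn proliferation into embryo maturation. The zygotic embryo of a pine grows inside the megagametophyte, a haploid storage tissue of maternal origin that feeds it and that the somatic embryo lacks. From the pre-cotyledonary stage on, both kinds of embryo form cotyledons and then fill their cells with storage and late embryogenesis abundant (LEA) proteins.

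The C libraries were deeper, with totals of 74949347 to 89590401 counts, against 22725467 to 43510184 in the 15 libraries of other stages. Between 132828 and 136626 transcripts had counts in each C library, against 24704 to 25194 in each of the others. Transcripts counted in C alone took 29.1% to 29.4% of the C counts, which lowers the plain CPM of all other transcripts there. TMM scaling, which sets libraries to a common level over most transcripts, gave C factors of 0.422 to 0.428 and the other stages 0.824 to 1.44. Among replicates, ES3 replicate C stood farthest from its stage. As a check of the tissue, the 80 transcripts named for LEA and storage proteins had a median CPM of 55.4 in ES1, 72.4 in ES2 and 84.4 in ES3, and of 16.3 in PC, 19.4 in EC and 10.9 in C.

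The 150 transcripts together had a summed level of 9644, 8906 and 10196 CPM in the ES1 libraries. In ES2 they had 1719, 1880 and 1651 CPM and in ES3 1253, 882 and 792 CPM. They had 2365, 2357 and 2480 CPM in PC, 1652, 1826 and 1997 in EC, and 104, 92.8 and 98.0 in C. Their sum was thus highest in ES1, of like size in ES2, PC and EC, smaller in ES3 and smallest in C, with no overlap between ES1 and any other stage. The median transcript stood at 15.02% of its own ES1 mean in ES2 (range 3.33% to 25.2%), at 8.84% in ES3 (0.286% to 22.2%), at 10.7% in the mean of PC and EC (0% to 332%) and at 0.178% in C (0% to 15.5%).

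**Figure D1:**
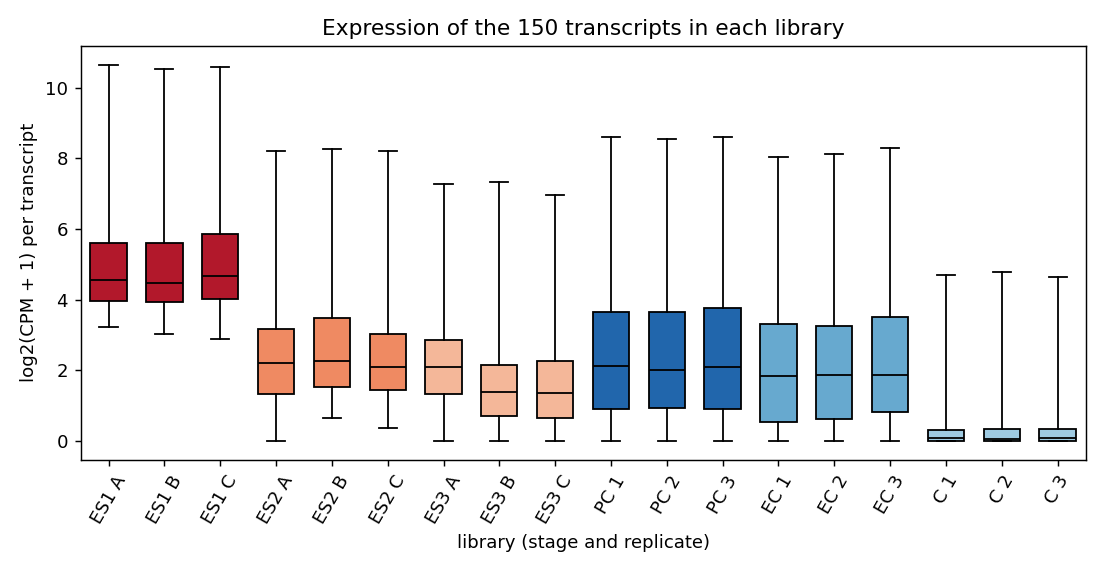
Level of the 150 transcripts in each of the 18 libraries, as log2(CPM + 1) on the vertical axis, with the somatic stages ES1, ES2 and ES3 left of the zygotic stages PC, EC and C. Boxes run over the interquartile range, lines mark the median and whiskers reach the lowest and highest transcript. ES1 lies above all other stages, PC and EC lie near ES2, and C is close to 0, with a median of 0.0432 CPM over the transcripts' C means.

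Most of them had a lower mean in ES3 than in ES2. This held for 134 of 150 transcripts, and for 62.8% of the 25775 transcripts counted outside C. With TMM-scaled CPM it was 124 of 150, and 46.4% of the 25775. Every ES3 library was below every ES2 library in 61 of 150 (22.2% of the 25775 show the same). With TMM-scaled CPM it was 50 of 150, and 12% of those 25775. No transcript had every ES3 library above every ES2 library. Within ES3, replicate A carried a higher summed level (1253 CPM) than replicates B and C (882 and 792 CPM). Without ES3 replicate C, the library that stood apart, both other ES3 libraries were below every ES2 library in 68 transcripts (30.7% of the 25775). The mean of these ES3 libraries was below that of ES2 in 121 of 150, and in 14732 of the 25775. Within ES1, replicate C had the highest level of the 3 for 84 transcripts, replicate A for 45 and replicate B for 21. The coefficient of variation (SD over mean) among ES1 libraries had a median of 14.3% and reached 91.9% for ppt_46851, at 20.7, 14.4 and 76.6 CPM, a transcript named here for that spread after its values were seen.

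The ratio that ranked the transcripts went from 12.8 to 3.89, with a median of 5.32. The last 3 inside were ppt_189519 at 3.901, ppt_252694 at 3.889 and ppt_125380 at 3.889. The first 3 outside were ppt_179776 at 3.880, ppt_154686 at 3.864 and ppt_82358 at 3.853. No gap in the ratio separates the chosen transcripts from the next ones.

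The limit on PC over EC gathered transcripts of very different zygotic level. Of the 150, 5 had no count in any of the 6 PC and EC libraries, 42 had a mean over PC and EC under 1 CPM, 62 had 1 to 10 CPM and 41 had 10 CPM or more. For the first and second of these classes the 1 CPM added to both means sets the ratio near 1, so their similar PC and EC values say that they were scarce in both stages, not that a level was held. Steady describes a measurable zygotic level in the other 103 transcripts only, and only for PC and EC. Even there it means no more than a ratio within the limits. The EC mean was below the PC mean in 57 of the 62 and in 39 of the 41. The median ES1 level was 138 CPM in the class with no zygotic count, 14.1 CPM in the class under 1 CPM, 22.8 CPM in the class of 1 to 10 CPM and 59.7 CPM in the class of 10 CPM or more. The median ratio of ES1 to the mean of PC and EC, with 1 CPM added to both, was 139, 10.4, 6.24 and 2.33 in the same order of classes and 6.79 over all 150.

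ES1 also lay above the zygotic embryos in most of the set. Every ES1 library was above every PC and EC library for 139 of 150 transcripts (25.2% of the transcripts counted outside C), and for 140 with TMM-scaled CPM (28.7%). Since the choice asked for a high ES1 level, nothing is read from that count. By class it was 5 of 5, 42 of 42, 60 of 62 and 32 of 41. For 3 transcripts every ES1 library lay below every PC and EC library (29.3% of the transcripts counted outside C), and all of them belong to the class of 10 CPM or more. Leaving out any 1 library of ES1, PC, EC or C gave 139 to 142 transcripts with ES1 above.

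The limits on the ratio leave room for a difference between EC and PC. The EC mean was below the PC mean in 132 of 150 transcripts, against 56.2% of the transcripts counted outside C, and in 129 with TMM-scaled CPM, against 48.6%. Every EC library was below every PC library in 42 of 150 (23% of the transcripts counted outside C). With TMM-scaled CPM it was 28 of 150, against 17.4%. Separation of the libraries over all 150 was thus about as frequent as over all transcripts. In plain CPM it held for 9 of 42 in the class under 1 CPM, 13 of 62 in that of 1 to 10 CPM and 20 of 41 in that of 10 CPM or more. It was thus more frequent in the class of 10 CPM or more. The rule used both stages, so nothing further is read from these counts. The ratio of PC to EC had a median of 1.27 and went from 0.708 to 1.496.

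**Figure D2:**
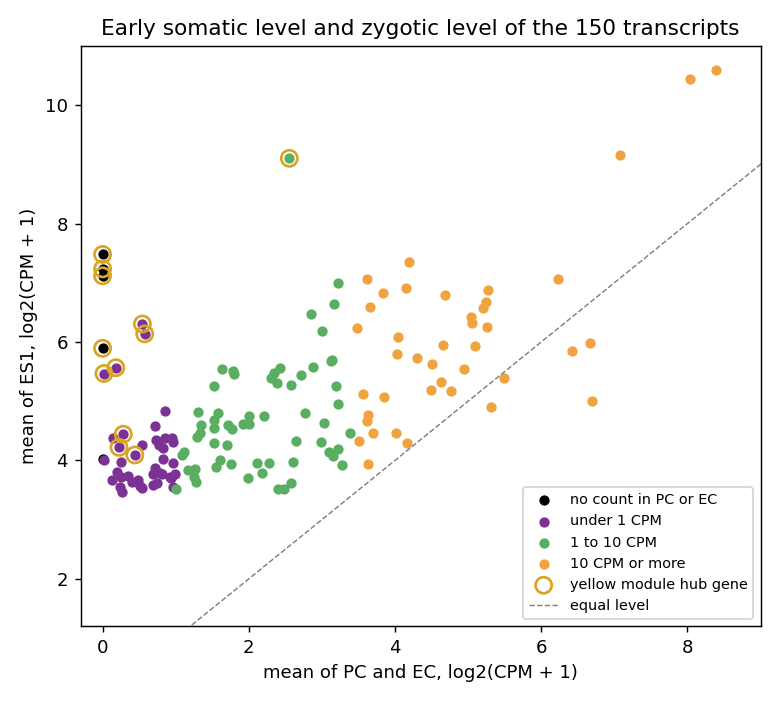
Mean ES1 level against the mean over PC and EC for the 150 transcripts, both as log2(CPM + 1), with 1 point per transcript coloured by its zygotic class. Rings mark the 12 hub genes of the yellow module and the dashed line marks equal levels. The 47 transcripts with no count or under 1 CPM lie along the left edge, and only 5 points lie below the dashed line.

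Names were scarce. They were taken from the study's table of hub genes (those with the most connections in a co-expression module), from its full list of the black module and from parts of its lists of the blue and brown modules. The rest of the module lists was not used here. In the tables as used, 14 of the 150 transcripts were found, and 7 of these have a protein name. All names are matches to proteins of other species. The other 136 are given by their identifier alone, and whether the study names them or places them in a module was not examined. Of the 14, 12 are among the 221 hub genes of the yellow module and 2 are in the blue module, 1 of them as a hub gene. Which rows were used sets this split over modules, so it is no result about the 150. These modules were built by the study on the same libraries, so membership in them is not independent evidence of the pattern. Of the 221 yellow hub genes, 100 met all conditions before the ranking.

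By their own counts, the 12 yellow hub genes were nearly absent from zygotic embryos. Their median CPM was 63.9 in ES1, 9.19 in ES2 and 3.67 in ES3, then 0.218 in PC, 0.0518 in EC and 0.00853 in C. The mean over PC and EC was under 1 CPM for 11 of the 12, against 132 of the other 209 yellow hub genes and 36 of the 136 transcripts not found in the tables used. The other 209 had a median CPM of 29.0 in ES1, 0.832 in PC, 0.330 in EC and 0 in C, so a low zygotic level was common in that group of hub genes. These differences were not tested.

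A pair of transcripts is named for ferritin, the iron storage protein, which plants keep in plastids. The first, ppt_179116, had the highest ranking ratio of all, 12.8. It had 108, 79.2 and 227 CPM in ES1, 9.39, 14.7 and 5.398 CPM in ES2 and 4.96, 1.72 and 4.33 CPM in ES3. It had no count in any PC or EC library, where 0 of 187634020 counts allows a level of up to 0.0160 CPM, and 0.0771, 0.0670 and 0.160 CPM in C. ES1 replicate C held more than the other ES1 libraries together, yet all 3 stood far above the later somatic stages. The second ferritin, ppt_126781, ranked 4 at a ratio of 9.64. It had 37.7, 29.4 and 62.7 CPM in ES1, 2.49, 4.79 and 3.48 CPM in ES2 and 2.43, 1.03 and 2.16 CPM in ES3. Of the 6 PC and EC libraries only EC replicate 2 had counts, at 0.0786 CPM, and C had 0.0771, 0.0223 and 0 CPM. By their own counts both ferritin transcripts were thus present in somatic embryos and nearly uncounted in zygotic embryos. In both the same ES1 library was highest. The 10 identifiers within 5 numbers of ppt_126781, all counted in C alone, summed to 126 CPM in C. Those near ppt_179116 summed to 2.10 CPM in C. Whether such neighbours belong to the same gene was not tested.

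A pair of transcripts belongs to enzymes that release nucleotides or phosphate. Ribonuclease 1 is a secreted RNase that in Arabidopsis is induced when phosphate runs short. Its transcript ppt_130587 had 155, 146 and 231 CPM in ES1, 34.6, 47.7 and 35.8 CPM in ES2 and 13.8, 22.5 and 15.6 CPM in ES3. It had no count in any of the PC, EC and C libraries, and the 3 somatic stages did not overlap. Identifiers within 5 numbers of it summed to 83.1 CPM in the mean over PC and EC and to 89.4 CPM in C. Inorganic pyrophosphatases split pyrophosphate into phosphate. The transcript named for inorganic pyrophosphatase 2, ppt_131195, had 552, 505 and 589 CPM in ES1, 150.8, 119 and 132 CPM in ES2 and 154, 161 and 49.2 CPM in ES3. Among the zygotic libraries it had 5.89, 4.79 and 2.22 CPM in PC, 7.52, 5.76 and 3.08 CPM in EC and 1.71, 3.71 and 3.06 CPM in C. Replicates A and B of ES3 lay above every ES2 library and replicate C of ES3 below every one. Every zygotic library stayed far under every somatic one. It is the only yellow hub gene of the 12 with a zygotic mean above 1 CPM.

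RADIALIS, a MYB-related transcription factor known from snapdragon for its part in floral asymmetry, was the only transcription factor named. Its transcript ppt_87713 had 22.3, 16.003 and 14.6 CPM in ES1, 3.14, 1.87 and 1.82 CPM in ES2 and 6.21, 2.57 and 2.25 CPM in ES3. It had 0.277, 0.216 and 0.437 CPM in PC, 0.0809, 0 and 0 CPM in EC and no count in C. The level in ES3 overlapped that in ES2, and every zygotic library lay under every somatic library.

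The remaining yellow hub genes have no protein name. Of these, ppt_81719 and ppt_81720, whose identifiers are consecutive, had no count in PC or EC. They were at 136, 130 and 183 CPM and at 57.1, 44.6 and 73.6 CPM in the ES1 libraries. Identifiers within 5 numbers of each summed to 382 and 267 CPM in the mean over PC and EC. In ES1, ppt_277386 had 63.1, 64.7 and 106 CPM, against 0.209 to 0.844 CPM in the PC and EC libraries. Its neighbour ppt_277387 had 63.2, 54.6 and 90.4 CPM in ES1, against 0.314 to 0.750 CPM in the PC and EC libraries. In all 4 of them, ES1 replicate C was again the highest. Outside the tables used, ppt_65200 is the fifth transcript with no zygotic count, at 12.3, 15.8 and 17.5 CPM in ES1. The transcript ranked 2, ppt_121786, had 19.9, 15.6 and 24.2 CPM in ES1, 0.746, 0.777 and 0.662 CPM in ES2 and under 1 CPM in every other library. The transcripts ppt_65200, ppt_81719, ppt_81720, ppt_277386 and ppt_277387 were singled out after their values were seen.

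The 2 transcripts of the blue module showed the opposite order of embryo types. Glycosyltransferases move sugars onto acceptor molecules, and the transcript with that name, ppt_95414, is a blue hub gene. It had 31.3, 32.5 and 29.0 CPM in ES1, 4.45, 8.24 and 6.35 CPM in ES2 and 2.48, 1.15 and 3.26 CPM in ES3. It had 135, 114 and 113 CPM in PC, 78.1, 90.6 and 87.2 CPM in EC and 1.76, 1.15 and 1.69 CPM in C. Every ES1 library thus lay below every PC and EC library, and EC below PC without overlap.

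Basic 7S globulin is a seed protein described in soybean. The transcript named for the small subunit of basic 7S globulin 2, ppt_80005, had 59.8, 60.7 and 66.8 CPM in ES1, 15.7, 12.1 and 14.6 CPM in ES2 and 18.5, 12.6 and 9.07 CPM in ES3. It had 109, 108 and 125 CPM in PC, 78.7, 88.3 and 97.3 CPM in EC and 0.411, 0.167 and 0.213 CPM in C. A neighbour by identifier, ppt_80003, which was not found in the tables used and was singled out after its values were seen, had 58.8, 55.1 and 56.4 CPM in ES1, 87.5, 92.3 and 104 CPM in PC, 64.8, 75.8 and 85.0 CPM in EC and 0.206, 0.234 and 0.294 CPM in C. With ppt_95414 these are the 3 transcripts with ES1 below every PC and EC library. The mean of ES1 was under that of PC and EC in another 2, ppt_153361 and ppt_232800 (the second noted after its values were seen), where the libraries overlapped.

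**Figure D3:**
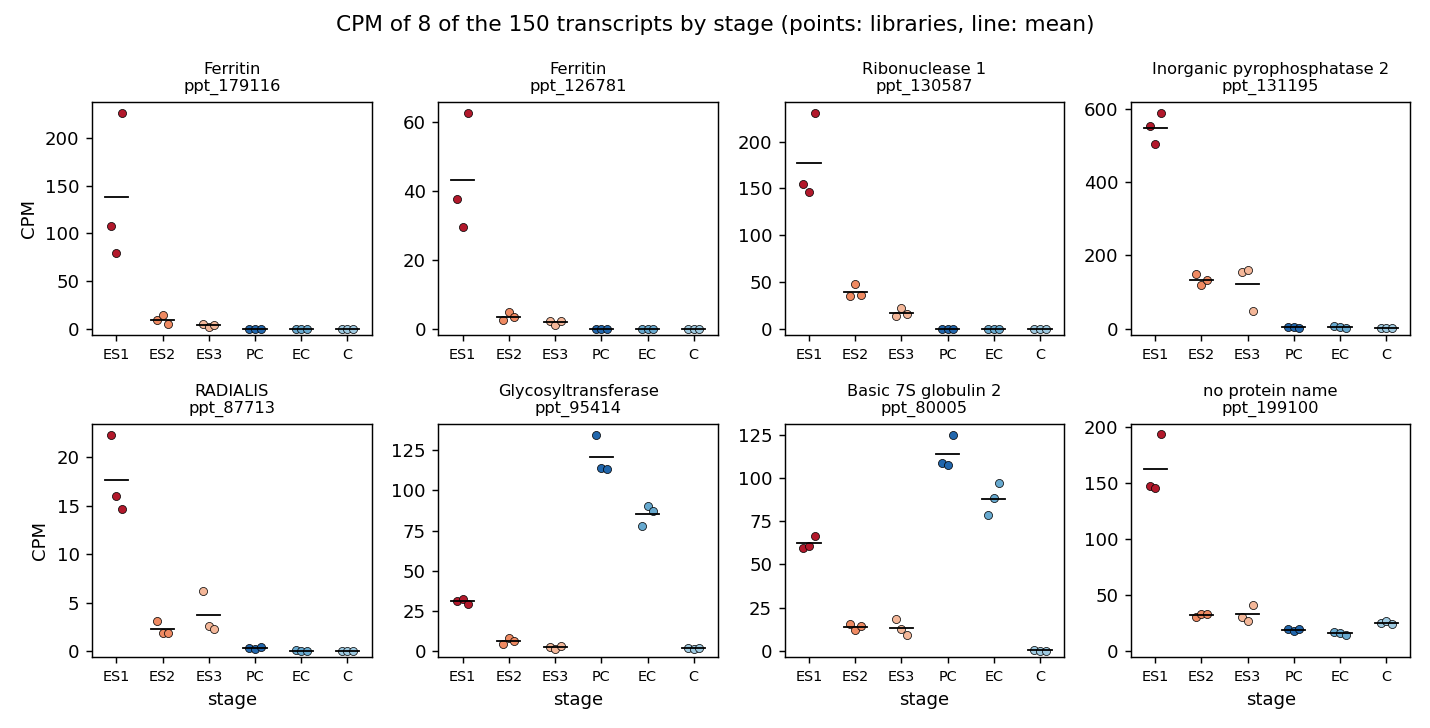
CPM of 8 of the 150 transcripts in each library, with 1 panel per transcript, points for libraries and a line for the mean of each stage (n = 3). The somatic stages stand left of the zygotic stages and each panel has its own vertical scale. Ferritin, ribonuclease 1, inorganic pyrophosphatase 2 and RADIALIS are near 0 in zygotic embryos, glycosyltransferase and basic 7S globulin 2 are higher in PC and EC than in ES1, and ppt_199100 stays at a middle level in C.

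The transcripts with the highest ES1 means, by counts not corrected for length, also had the highest means over PC and EC, and their identifiers are consecutive. The first, ppt_209655, had 1608, 1466 and 1552 CPM in ES1, 298, 308 and 267 CPM in ES2 and 140, 100.2 and 124 CPM in ES3. It had 388, 377 and 388 CPM in PC, 260.3, 278 and 314 CPM in EC and 15.7, 9.93 and 11.2 CPM in C. The second, ppt_209654, had 1460, 1320 and 1381 CPM in ES1 and 272, 282 and 299 CPM in PC. Neither was found in the tables used. Without this pair, the summed level of the other 148 transcripts was 6576, 6120 and 7264 CPM in ES1, against 1705, 1698 and 1793 in PC and 1175, 1313 and 1417 in EC.

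The 150 transcripts are not all separate genes as far as the identifiers show. Identifiers within 5 numbers of each other joined 59 of the 150 transcripts into 27 runs of 2 or 3, and 618 of the 832 named pairs in the tables used that lie this close (74.3%) share a protein name. In 21 of the 27 runs all transcripts fell in 1 zygotic class. How the authors counted reads that match several transcripts is not stated, so neighbours may be copies or fragments of 1 gene and their values are not independent.

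Keyword lists on the protein names place the set among known functions only as far as the names in the tables used reach. Members fell in 3 of 17 lists. The 2 ferritins belong to the 61 transcripts named for redox proteins and haemoglobin, RADIALIS to the 122 named transcription factors and the 7S globulin to the 80 LEA and storage proteins. The cell cycle and DNA replication list held none. Of its 118 transcripts, 82 met the ES1 conditions, but only 21 of these kept PC over EC within the limits. The lists of chromatin and histones, cell wall, pathogenesis-related and defence, transporters, receptor kinases and signalling, hormones, terpenoids, phenylpropanoids and flavonoids, cytochrome P450, retroelements, lipid metabolism, amino acid and polyamine metabolism, and photosynthesis and organelle genes held none either.

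Stage C was then compared with PC and EC, to ask whether a level that was similar in the first and second zygotic stages lasted to the cotyledonary stage. Plain CPM cannot answer this by itself, since it is lower in C for most transcripts. With deposited totals as library size, the median log2 fold change of all tested transcripts was -2.25. The C mean was under 1 CPM for 134 of 150. These were 59 of 62 in the class of 1 to 10 CPM, 28 of 41 in that of 10 CPM or more, and all of the 5 and 42 below 1 CPM. The 47 with no count in C were 13, 3, 3 and 28 in that order. Transcripts already under 1 CPM in PC and EC show no fall by these counts. The share of all transcripts with a C mean under 1 CPM was not taken, so nothing is read from these counts about the set. Every C library was below every PC and EC library for 119 of 150, but this share is close to the 73.7% of all transcripts counted outside C, since plain CPM is lower in C for most transcripts. With TMM-scaled CPM the same held for 104 of 150, against 34% of those transcripts.

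The test across all transcripts used edgeR's quasi-likelihood F-test with TMM scaling, and called a transcript at an adjusted p under 0.05 (Benjamini-Hochberg) and a log2 fold change beyond 1 in either direction. The filter, above 2 CPM in at least 6 libraries, kept 111 of the 150. Of these 111, 92 fell in C, 6 rose and 13 were not called. Of all 23118 transcripts tested, 30.1% fell and 25.3% rose. The median log2 fold change of the 111 was -3.31, against -0.07 over all tested, so the median difference from the typical transcript was -3.24. Scaled by library size alone, without TMM, 102 fell and 2 rose (66.9% and 7.91% of all tested). The median of the 111 was then -4.92 and that of all tested -1.75, a difference of -3.17. The filter left out transcripts that were low in all stages but ES1. When all 150 were tested with a looser filter of 1 CPM in 3 libraries, 119 fell and 7 rose. Of all 54536 transcripts tested in that fit, 14.3% fell and 65.4% rose, with a median log2 fold change of 10.39, and that fit takes in transcripts counted in C alone.

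Transcripts that fell in C were found in each class with a zygotic count, but the class under 1 CPM was scarce in PC and EC already. In that class 12 of 42 transcripts were tested and 5 of the 12 had no count in C. With the floor in place of no count, its median log2 fold change was -2.69 instead of -3.41. Among tested transcripts, 37 of 41 in the class of 10 CPM or more fell, 46 of 54 in the class of 1 to 10 CPM and 9 of 12 in the class under 1 CPM. Of all tested transcripts, at any zygotic level, 30.1% fell. The share at a like zygotic level was not taken. The classes rest on the same PC and EC values as the fold change, so nothing is read from differences between them. The fall was beyond 4-fold for 83 of the 92 and beyond 8-fold for 62. The share of all tested transcripts beyond these folds was not taken, so nothing is read from these counts about the set. With no zygotic count to fall from, none of the 4 tested transcripts of the first class was called lower.

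Several levels that were clear in PC and EC were missing in C. The transcript ppt_153361 had 36.6, 44.3 and 75.6 CPM in PC, 26.6, 40.2 and 40.7 CPM in EC and no count in C, so it was at least 774-fold lower in C than in PC and EC (floor of 3 counts over the 3 C libraries, TMM-scaled; edgeR adjusted p = 3.04e-10). In somatic embryos it had 40.2, 36.1 and 47.3 CPM in ES1, overlapping EC, and 2.66, 3.03 and 4.12 CPM in ES3. The transcript ppt_138842 had 17.3, 10.99 and 24.6 CPM in PC, 9.75, 19.5 and 19.5 CPM in EC and no count in C, and was at least 299-fold lower in C (edgeR adjusted p = 1.05e-08). In both, all 6 PC and EC libraries held the transcript and all 3 C libraries lacked it. Of the tested transcripts 18 had no count in C, and 8 of these had 1 to 10 CPM over PC and EC and 3 had 10 CPM or more. Another 5 had under 1 CPM and 2 had no zygotic count. The share of all tested transcripts with no count in C was not taken.

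The named transcripts of the blue module fell too. Basic 7S globulin 2 (ppt_80005) had a log2 fold change of -6.39 ± 0.27 in C against PC and EC (SE; edgeR adjusted p = 6.13e-12) and glycosyltransferase (ppt_95414) one of -3.86 ± 0.31 (SE; edgeR adjusted p = 1.05e-08). The pair with the highest counts fell less, by 2.57 ± 0.17 on the log2 scale for ppt_209655 (SE; edgeR adjusted p = 6.69e-10) and by 2.64 ± 0.20 for ppt_209654 (SE; edgeR adjusted p = 4.67e-09). RADIALIS (ppt_87713) passed narrowly, being at least 2.90-fold lower in C (edgeR adjusted p = 0.0499). The call was lost in 15 of 30 other fits. Among these were the fits without any 1 of PC replicates 1, 2 and 3, EC replicate 1, C replicates 1, 2 and 3, ES1 replicates B and C, ES2 replicates B and C and ES3 replicate C, in which the log2 fold change was -4.38 to -3.04.

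**Figure D4:**
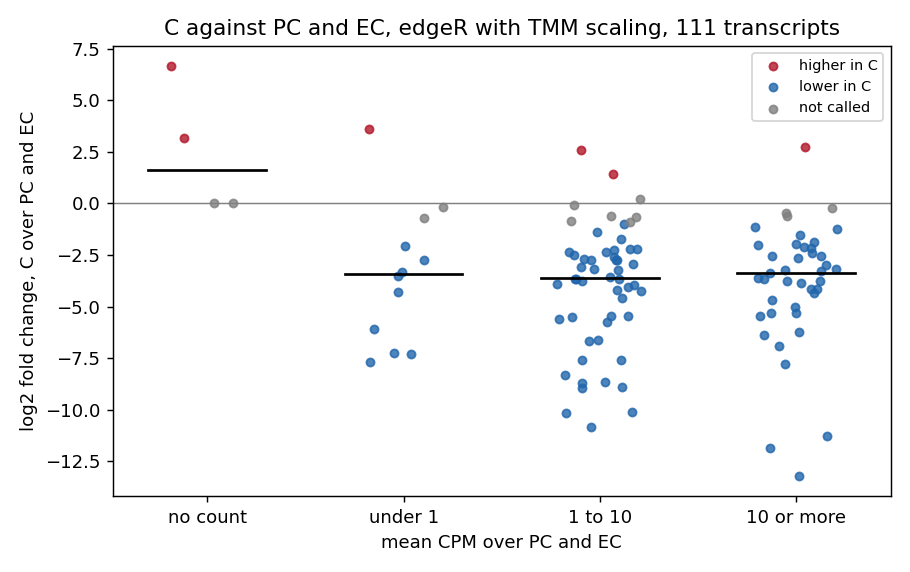
Log2 fold change of C over PC and EC (edgeR, TMM scaling) for the 111 tested transcripts, with 1 point per transcript grouped by the mean CPM over PC and EC, and a black line at each class median. Blue points fell in C (92), red points rose (6) and grey points were not called (13). The classes with a zygotic count have medians of -3.41, -3.60 and -3.37, and points of transcripts with no count in C or in PC and EC rest on fitted values that are no bounds.

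The 6 that rose in C fall into 2 kinds. The consecutive identifiers ppt_199099 and ppt_199100, singled out after their values were seen, kept a level in every stage. For ppt_199100 this was 148, 146 and 194 CPM in ES1, 30.8, 33.0 and 33.4 CPM in ES2 and 30.6, 26.5 and 41.4 CPM in ES3. The zygotic libraries had 19.9, 17.7 and 19.2 CPM in PC, 17.0, 15.9 and 14.1 CPM in EC and 25.1, 26.4 and 24.2 CPM in C. Every C library thus lay above every PC and EC library even in plain CPM. The log2 fold change was 2.74 ± 0.15 (SE; edgeR adjusted p = 1.26e-10) and 1.05 under library size alone. With deposited totals as library size it was 0.55, under the fold threshold. For ppt_199099 it was 2.58 ± 0.14 (SE; edgeR adjusted p = 8.72e-11). It was 0.90 with library size alone and 0.40 with deposited totals, both under the fold threshold.

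The other 4 that rose are yellow hub genes, and 3 of them had few zygotic counts. Ferritin ppt_179116 had 24 counts over the 3 C libraries and 0 over the 6 PC and EC libraries, which makes it at least 28.9-fold higher in C on TMM-scaled CPM (edgeR adjusted p = 0.00174), at a C level far below that of any somatic stage. Ferritin ppt_126781 had 8 counts in C against 3 in PC and EC (edgeR adjusted p = 0.0207), a call lost in 5 of 30 other fits, the one without C replicate 1 among them (log2 fold change 2.25). The transcript ppt_81719 had 2 counts in C against 0 (edgeR adjusted p = 0.0219). Inorganic pyrophosphatase 2 (ppt_131195) had a log2 fold change of 1.42 ± 0.34 (SE; edgeR adjusted p = 0.00137) with TMM scaling, but of -0.27 when scaled by library size only and of -0.77 by deposited totals, so its direction depends on the scaling. Of the 6, ppt_179116 and ppt_199100 were still called higher with library size alone.

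Since C libraries held many transcripts counted nowhere else, counts of neighbours by identifier were added to those of each transcript. Of the 150, 139 had a neighbour within 5 numbers that was counted in C alone. The C level of such neighbours reached or passed the transcript's own PC and EC level in 53 of the 150. With all neighbours summed, the median ratio of C to PC and EC over the 150 was 0.326, in plain CPM with 1 CPM added to both. Plain CPM is lower in C for most transcripts. With deposited totals as library size, the median log2 fold change of all tested transcripts was -2.25. Neighbour sums were not made for other transcripts, so the ratios and counts here have no share over all transcripts beside them. Among the 41 with at least 10 CPM over PC and EC, neighbours counted in C alone reached at least 0.5 times the transcript's own PC and EC level in 7. With all neighbours summed, the C level stayed under 0.5 times the PC and EC level in 35 of the 41 and was at or above it in 3. At a log2 fold change of -2.25 the typical tested transcript also lies under 0.5 times its PC and EC level. Nothing is therefore read from the 35, or from the median ratio of 0.326, about the set. For these 41 the median ratio was 0.0958 with neighbours and 0.0661 for the transcripts alone. What part reads assigned to other transcripts have in the fall in C was not tested beyond these sums.

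The test on named lists gives the setting in which this fall stood, to be read beside the 30.1% of all tested transcripts that fell and the 25.3% that rose. In C against PC and EC, 98 of 116 tested cell cycle and DNA replication transcripts fell and 7 rose, and 41 of 49 for chromatin and histones fell and 2 rose. Of 135 tested pathogenesis-related and defence transcripts 96 fell and 0 rose (edgeR), and 0 were higher at an unadjusted p under 0.05. Of 59 redox transcripts 41 fell and 4 rose, and of 118 transcription factors 67 fell and 29 rose. Receptor kinases and signalling had 64 that fell and 17 that rose of 98, hormones 38 and 12 of 70, cell wall 45 and 21 of 81, transporters 44 and 31 of 89, lipid metabolism 20 and 9 of 39, and amino acid and polyamine metabolism 21 and 3 of 32. In 4 lists more transcripts rose than fell. These were terpenoid synthesis with 28 that rose and 10 that fell of 39, and LEA and storage proteins with 36 and 13 of 80. Phenylpropanoids and flavonoids had 17 and 11 of 43, and cytochrome P450 had 17 and 9 of 35. In each of these 4 lists but LEA and storage proteins, the fallen share was near that of all tested. None of these 4 kept its excess with library size alone, where 11 rose and 11 fell for terpenoids, 15 and 26 for LEA and storage proteins, 5 and 24 for phenylpropanoids and flavonoids, and 12 and 12 for cytochrome P450, beside 7.91% that rose and 66.9% that fell of all tested. In the other 13 lists more transcripts fell than rose with library size alone. With TMM, retroelements had 4 that rose and 6 that fell of 15, and photosynthesis and organelle genes 1 and 1 of 9. The study drew the named transcripts from these libraries, so the lists are no independent evidence of a direction.

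Transcripts chosen by the same ES1 conditions and ranking but with a falling zygotic level served as a comparison. This falling set was made of the 150 highest ratios among the 1418 transcripts with PC over EC above 1.5. The set described here had a median CPM of 23.3 in ES1, 3.45 in PC and 2.56 in EC, and the falling set one of 52.9 in ES1, 9.58 in PC and 3.47 in EC. A zygotic mean under 1 CPM was found for 47 transcripts of the set described here, against 14 of the falling set, and 12 against 30 were yellow hub genes. In the test of C against PC and EC, 92 of 111 tested transcripts of the set described here were lower, with a median log2 fold change of -3.31, against 136 of 140 with a median of -7.64 in the falling set. The next 150 transcripts by rank had 102 of 148 lower with a median of -2.56, and all transcripts that met the conditions had 1543 of 3701 lower with a median of -0.77. These differences between sets were not tested. Another 26 transcripts met the ES1 conditions with PC over EC under 0.67, too few for a set of the same size.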

How the data were processed

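Embryo RNA came as 18 libraries (6 stages, 3 libraries each), and the labels gave the stage and replicate of all 18 columns. Deposited were raw read counts per transcript, in whole numbers. To make them, the authors used SeqTrimBB for trimming, Trinity 2.11, CD-HIT-EST and Mira for assembly, BWA MEM for mapping against their pine transcriptome and sam2counts for counting. Submitters' notes also name bcl2fastq, without a version. Names came from the study's hub gene table, its black module list and parts of its blue and brown lists, which together hold 5356 transcripts, 1661 of them with a protein name. The other module lists were not used here.

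Levels are plain CPM. C was tested against the mean of PC and EC with edgeR 4.0.16 (limma 3.58.1, R 4.3.3) on all 18 libraries in 1 fit of 6 groups, with TMM factors and Benjamini-Hochberg adjustment over 23118 of 287424 transcripts. A standard error is the absolute log2 fold change over the root of its F value. Folds against a group with no count use a floor of 3 counts over the group. Floors cover counting error only. Tables used Python 3.11.15 and pandas 2.3.3. The fit was tested on simulated data.

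The 150 transcripts and the keyword lists were chosen with earlier results of these data known. Transcripts named in the text are those with a protein name, the 2 with the highest ranking ratio, ES1 mean and zygotic mean, the 2 highest and 2 lowest fold changes called in C, and 3 on each side of the rank limit. Others are marked where they appear. Alternatives were other filters, scalings, tests (DESeq2 1.42.0, likelihood ratio), thresholds, stages and libraries in the fit, thinned C counts, a replicate block, and other forms of the choice. TMM-scaled CPM and left-out libraries for counts of non-overlapping stages, and library size alone for the lists, were added after seeing the data. Replicates of a stage differed beyond counting noise (chi-square over its degrees of freedom, 12.2 to 147).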

Additional observations from a re-analysis of the deposited data

How the results depend on the processing

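The count of transcripts lower in C stayed between 86 and 103 of those tested with the filter on low counts, and reached 119 and 120 when all 150 were tested. In 86 transcripts the lower level was called in every fit that tested them, and 1 was called higher in every one. The number higher in C fell to 2 with library size alone and to 1 with the deposited totals. The median log2 fold change of -3.31 was -3.80 with no filter beyond 1 count, -3.78 with 1 CPM in 3 libraries, -4.92 with library size alone, -5.41 with deposited totals, -3.04 for C against EC alone, -3.47 for C against PC alone and -3.45 with the zygotic libraries alone. Leaving out 1 library at a time gave -3.56 to -3.22, with 87 to 92 lower and 5 or 6 higher. Inorganic pyrophosphatase 2 (ppt_131195) reversed to -0.27 with library size alone and -0.77 with deposited totals. With replicate numbers as a block, 90 fell and 6 rose with a median of -3.30. Deviations from the stage means correlated at -0.23 to 0.25 between same-numbered zygotic libraries and at -0.38 to 0.38 between same-lettered somatic libraries. With 3 libraries per stage, these values cannot decide whether numbers or letters pair samples.

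The choice of transcripts was less stable than the test. TMM-scaled CPM kept 114 of the 150, a pseudocount of 0.1 CPM kept 103, narrower limits on PC over EC kept 67 and no limit kept 25. Leaving out 1 library kept 114 to 150, and 114 was without PC replicate 3. Depth limits the 47 transcripts with no count or under 1 CPM in PC and EC, whose zygotic fold changes rest on few counts.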
